A study of Homo sapiens with 2 samples.

Results

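Factors that build ribosomes in the nucleolus were compared between K562 cells grown with erythropoietin (EPO) and K562 cells grown without it, both treated with imatinib. The list holds 55 genes: RNA polymerase I and its cofactors, proteins of small nucleolar ribonucleoproteins (snoRNPs), assembly factors of the small and of the large ribosomal subunit, and nucleolar proteins with several roles. A gene was measured if a probe of the array named it and no other gene, and the probes of a gene were averaged. This gave 50 of the 55 genes, out of 18377 genes measured in all, through 52 probes. NOP56 and PPAN were covered only by probes that name further genes and are described apart. GNL3, DDX18 and EBNA1BP2 were not analysed here.

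K562 is an established human leukaemia line whose growth is driven by the BCR-ABL1 fusion kinase, and imatinib inhibits that kinase. EPO is the hormone that drives red cell formation through its receptor. The first sample was imatinib-treated K562 cells grown with EPO, and the second was imatinib-treated K562 cells whose label names no EPO. Since the growth protocol speaks of cells with and without EPO, the second sample was read as the culture without it. Per the labels' protocols, imatinib was present at 2 µM during 6 h in each culture, so both samples carry the drug and cells without imatinib were not analysed here. Total RNA of each sample was hybridised to 1 Affymetrix Gene ST array, so there is 1 array per group, no replicate and no test. Every difference below compares these 2 arrays and has no replicate check.

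The deposited values are centred on a baseline of the authors, so a value states how far a gene lay above or below that baseline and not how abundant its transcript was. They were read as log2 values, and folds hold only under that reading, because no source used here states the base. Over 28869 probes the standard deviation was 0.134 on the array with EPO and 0.431 on the array without EPO, so most genes lay farther from the baseline without EPO (82.6% of all genes, and 46 of the 50 factors). A difference is the value with EPO minus that without EPO, on the log2 scale. A gene was called higher or lower at a difference of at least 1, which is 2-fold. In bulk RNA, fewer cells of a type and less RNA per cell cannot be told apart. Because the values are centred, markers could not show the identity of the cells by level. The 6 measured of 9 K562 markers had a median difference of 0.25 and ranged from -0.040 to 1.02, while the 6 measured of 7 lymphoid markers ranged from -0.67 to -0.20 and the 6 granulocyte and monocyte markers from -1.07 to 1.05. The part of these differences in the results below was not tested.

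A ribosome begins as a long precursor RNA that RNA polymerase I transcribes from the ribosomal DNA repeats. Small nucleolar RNAs, bound in snoRNPs, guide chemical modification of the precursor, and large sets of assembly factors cut, fold and dress it with ribosomal proteins until the small and the large subunit leave the nucleus separately. Growth signals, the transcription factor MYC among them, are known to set the output of this pathway, and erythroid precursors depend on it heavily, as the anaemias caused by ribosome defects show.

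The factors were, as a list, higher in the culture with EPO. The list was chosen with earlier results of these data known, so its values beside those of all genes are descriptions only. Of 50 genes, 45 (90%) had a positive difference, against 45.4% of all genes, and the median difference was 0.59, against -0.047 for all genes. At least 2-fold higher were 12 of the 50 (24%), against 6.19% of all genes, and 0 of the 50 were at least 2-fold lower, against 0.898% of all genes. The 12 were WDR12, DDX21, UTP15, RRP1B, UTP6, GNL2, LYAR, UTP4, NOLC1, WDR3, NOP14 and DKC1. At a threshold of 1.5-fold, 26 of the 50 were higher and 0 were lower, against 18.1% and 4.65% of all genes.

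Relative to the baseline, most of the separation lay on the array without EPO. The median value of the 50 factors was 0.15 with EPO and -0.42 without EPO, whereas all genes had medians of -0.0012 with EPO and 0.025 without EPO. On the first array 48 of the 50 lay above the baseline, between -0.045 and 0.53. Without EPO, 44 of the 50 lay below it, between -1.20 and 0.47. Among all genes, 49.3% lay above the baseline with EPO and 45.2% lay below it without EPO. A single factor can therefore lie much nearer the baseline with EPO than without it and differ by more than 2-fold. LYAR did so, with 0.19 with EPO and -0.94 without EPO.

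**Figure D1:**
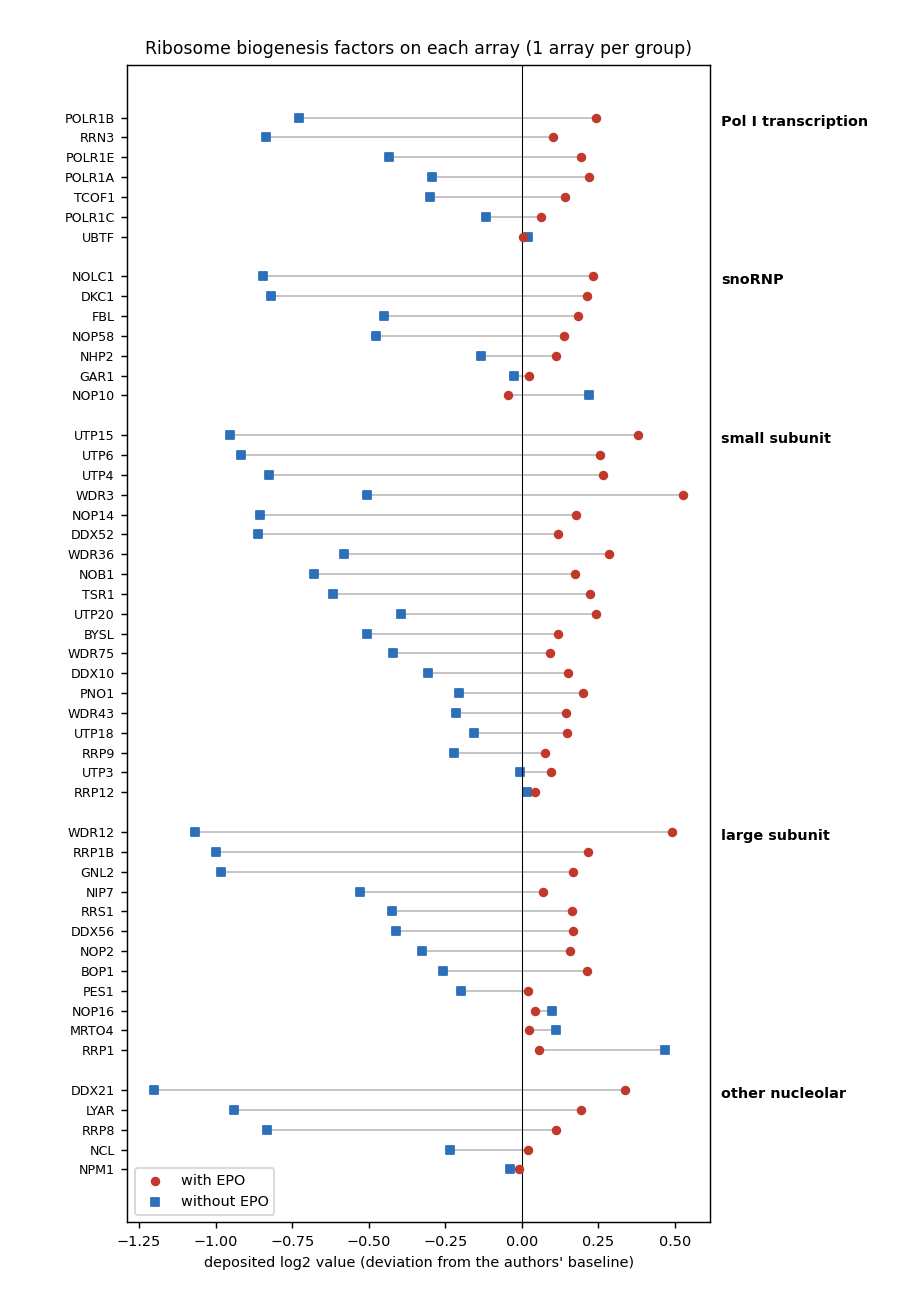
Deposited log2 value (x axis, deviation from the authors' baseline) of each of the 50 factors on the array with EPO (red circles) and on the array without EPO (blue squares), 1 array each, grouped by role and ordered by difference. The red circles sit between -0.045 and 0.53, while the blue squares run from -1.20 to 0.47.

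The size of the difference depended on the scaling between the arrays, which cannot be settled with 1 array per group. Cellular machinery genes (293 genes chosen by symbol, from RNA polymerase II, Mediator, the spliceosome, nuclear pore, proteasome, respiratory chain and mitochondrial ribosome) had a median difference of 0.46, and silent gene families (482 olfactory, taste and vomeronasal receptor, keratin-associated protein and beta-defensin genes) one of -0.33. With the machinery median subtracted, 32 of the 50 factors stayed above 0, and 2, WDR12 at 1.10 and DDX21 at 1.08, stayed at least 2-fold higher, which is 4% of the factors against 0.729% of all genes. With the silent median subtracted, 19 of the 50 were at least 2-fold higher, which is 38% against 15.3% of all genes. At least 2-fold lower were 0 of the 50 under either scaling, against 5.90% of all genes with the machinery median subtracted and 0.55% with the silent median subtracted.

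Other sets of cell machinery give a scale for these values. Proteasome subunits (36 genes), which form the protease that degrades tagged proteins, had a median difference of 0.76 and 27.8% of them were at least 2-fold higher. Mitochondrial ribosomal proteins (70 genes) had a median of 0.42 and 14.3% past 2-fold. Cytosolic ribosomal proteins (56 genes), the structural proteins of the ribosome that these factors assemble, had a median of 0.039 with values of -0.61 to 0.92, and 0 of them were past 2-fold in either direction. Signal from pseudogene copies was not examined for these sets. None of these contrasts between sets was tested. Proteasome and mitochondrial ribosomal genes belong to the machinery class above.

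**Figure D2:**
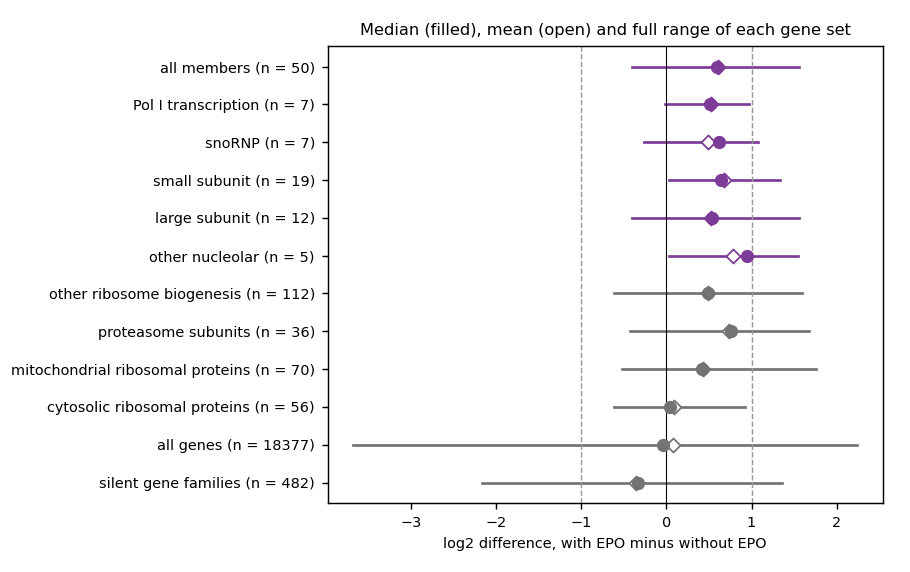
Log2 difference, with EPO minus without EPO (x axis), of the 50 factors and their role groups (purple) and of other gene sets (grey). Filled circles are medians, open diamonds means and lines the full range. Dashed lines mark 2-fold. All 5 role groups have medians between 0.51 and 0.94, and cytosolic ribosomal proteins stand at 0.039.

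Transcription of ribosomal DNA was represented by 7 genes, with a median difference of 0.51. Of the 7, 6 were above 0 and 0 reached 2-fold, against 6.19% of all genes, a share at which 7 genes say little. POLR1B, the second largest subunit of RNA polymerase I, had a log2 value of 0.24 with EPO and -0.73 without EPO, a difference of 0.97 (1.96-fold). RRN3, the factor that joins the polymerase to its promoter complex and is known to be a target of growth signalling, had 0.10 with EPO and -0.84 without EPO, a difference of 0.94 (1.91-fold). These were the widest gaps of the group, just short of 2-fold. The RRN3 value is uncertain, since 4 pseudogenes carry its name and the 3 probes that name RRN3 together with such copies had differences of -0.18, -0.14 and -0.026.

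POLR1A, the largest subunit, had 0.22 with EPO and -0.29 without EPO (difference 0.51). POLR1E, which forms a peripheral subcomplex of the polymerase with POLR1G, had 0.19 with EPO and -0.43 without EPO (difference 0.63). TCOF1, the treacle protein that supports RNA polymerase I in the nucleolus, had 0.14 with EPO and -0.30 without EPO (difference 0.44). These 3 lay near the middle of the group. POLR1C, shared between RNA polymerases I and III, differed by 0.18. UBTF, the DNA-binding factor that keeps ribosomal DNA repeats open, lay at the baseline on both arrays, 0.0035 with EPO and 0.020 without EPO.

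Other subunits of RNA polymerase I, from a list of 116 further ribosome biogenesis genes (112 measured), ran in the same direction. POLR1F stood at a difference of 0.91, POLR1H at 0.86, POLR1D at 0.34 and POLR1G at 0.11. All 8 measured subunits with a POLR1 symbol were thus above 0, against 45.4% of all genes. Subunits under other symbols were not part of this count. The median of the 8 was 0.57 and 0 were past 2-fold, against 6.19% higher and 0.898% lower among all genes. The TAF1 subunits of SL1, the factor that recognises the ribosomal DNA promoter, split instead. TAF1B stood at 1.13 and TAF1A at 0.50, while TAF1D stood at -0.059 and TAF1C at -0.61. Except for TAF1C, these were named for the complex they belong to and not by a rule on their values.

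The snoRNP proteins had a median difference of 0.62 over 7 genes, and 2 of the 7 were at least 2-fold higher, against 6.19% of all genes. NOLC1, a chaperone that carries snoRNPs between the nucleolus and Cajal bodies, had 0.23 with EPO and -0.84 without EPO, a difference of 1.08 (2.11-fold). DKC1, the dyskerin pseudouridine synthase of the box H/ACA class, had 0.21 with EPO and -0.82 without EPO, a difference of 1.03 (2.04-fold). FBL, the fibrillarin methyltransferase of the box C/D class, had 0.18 with EPO and -0.45 without EPO (difference 0.63). NOP58, a core protein of the same class, had 0.14 with EPO and -0.48 without EPO (difference 0.62), close to FBL.

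The 4 core proteins of the box H/ACA particle did not share one difference. Beside DKC1, NHP2 differed by 0.24, with its 2 probes at 0.22 and 0.27. GAR1 differed by 0.049, with 0.024 with EPO and -0.024 without EPO. NOP10, the smallest of the 4, was lower with EPO, at -0.045 with EPO and 0.22 without EPO, a difference of -0.26. The partners thus covered a span from -0.26 to 1.03, although each is needed for a complete particle. The upper end rests on the probe of DKC1 alone. With the probes that it shares with small RNAs averaged in, DKC1 would stand at -0.63. NOP56, the third core protein of the box C/D class, is covered by 1 probe that it shares with the small nucleolar RNA SNORD56, with 0.19 with EPO and 0.030 without EPO (difference 0.16).

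Assembly factors of the small subunit were the largest group, and all 19 had a positive difference. Their median was 0.64, from 0.025 for RRP12 to 1.33 for UTP15, and 5 of the 19 (26.3%) were at least 2-fold higher, against 6.19% of all genes. Many of them form the small-subunit processome, the particle that gathers on the precursor RNA as it is made. Its first module, UTP-A, links transcription to processing. UTP15 of that module had 0.38 with EPO and -0.95 without EPO, a difference of 1.33 (2.52-fold). UTP4 had 0.27 with EPO and -0.83 without EPO, a difference of 1.09 (2.13-fold). WDR75 differed by 0.51 and WDR43 by 0.36, and from the further list HEATR1 stood at 0.87 and NOL11 at 1.03. The 6 UTP-A genes therefore all lay above 0, against 45.4% of all genes. Of the 6, 3 were at least 2-fold higher, against 6.19% of all genes, a count that rests on few genes.

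The UTP-B module, which binds next, gave a wider span. UTP6 had 0.25 with EPO and -0.92 without EPO, a difference of 1.17 (2.25-fold). WDR3 had 0.53 with EPO, the highest value of the 50 factors on that array, and -0.51 without EPO, a difference of 1.03 (2.05-fold). WDR36 had 0.29 with EPO and -0.58 without EPO (difference 0.87). UTP18 of the same module differed by 0.30, and from the further list PWP2 stood at 0.57 and TBL3 at -0.044.

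Other processome factors stood in between. NOP14 had 0.18 with EPO and -0.85 without EPO, a difference of 1.03 (2.05-fold). The RNA helicase DDX52 had 0.12 with EPO and -0.86 without EPO (difference 0.98), just short of 2-fold. UTP20, a very large scaffold protein, differed by 0.64, the helicase DDX10 by 0.46, the U3 snoRNP protein RRP9 by 0.30 and UTP3 by 0.10. The last 2 lay close to the baseline on the array with EPO, at 0.074 and 0.095.

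The late factors that finish the small subunit were also above 0. NOB1, the endonuclease that makes the final cut of the small ribosomal RNA, had 0.17 with EPO and -0.68 without EPO (difference 0.85). TSR1, a factor bound to the nearly finished subunit, had 0.22 with EPO and -0.62 without EPO (difference 0.84). BYSL differed by 0.62 and PNO1, the binding partner of NOB1, by 0.41. RRP12, known in yeast as an export factor, differed by 0.025 and lay at 0.042 with EPO and 0.017 without EPO. Of the late factors on the further list, the kinase RIOK2 stood at 1.34, LTV1 at 1.32 and the kinase RIOK1 at 0.59. RIOK2 and LTV1 were among the 5 highest genes of that list.

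Assembly factors of the large subunit, 12 measured of 16, had a median difference of 0.53 and the widest range of the role groups, from -0.41 to 1.56. WDR12 had the largest difference of all 50 factors, with 0.49 with EPO and -1.07 without EPO, a difference of 1.56 (2.94-fold). It forms the PeBoW complex with PES1 and BOP1, which is needed to process the large-subunit RNA. PES1 differed by only 0.22, with 0.019 with EPO and -0.20 without EPO, and BOP1 by 0.47, with its 2 probes at 0.56 and 0.38. The 3 partners of this complex were thus spread between 0.22 and 1.56.

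RRP1B had 0.22 with EPO and -0.999 without EPO, a difference of 1.22 (2.32-fold). Its paralogue RRP1 was the lowest of the 50 factors, with 0.058 with EPO and 0.47 without EPO, a difference of -0.41. The nucleolar GTPase GNL2 had 0.17 with EPO and -0.98 without EPO, a difference of 1.15 (2.22-fold). NIP7, RRS1 and the helicase DDX56 lay together at 0.60, 0.59 and 0.58, and the RNA methyltransferase NOP2 at 0.48. NOP16 at -0.055 and MRTO4, a relative of the ribosomal stalk protein, at -0.090 lay slightly above the baseline on both arrays. The probe that PPAN shares with its neighbour P2RY11 and their readthrough transcript had -0.083 with EPO and 0.23 without EPO (difference -0.31).

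The 5 nucleolar proteins with several roles had a median difference of 0.94, which rests on few genes. DDX21, an RNA helicase that acts on both transcription and processing of ribosomal RNA, had 0.34 with EPO and -1.20 without EPO, the lowest value of the 50 factors on that array, and a difference of 1.54 (2.91-fold). LYAR, a zinc finger protein also known to bind globin gene promoters, had 0.19 with EPO and -0.94 without EPO, a difference of 1.14 (2.20-fold). RRP8, a methyltransferase of the large ribosomal RNA, had 0.11 with EPO and -0.83 without EPO (difference 0.94). NCL and NPM1, the abundant histone chaperones nucleolin and nucleophosmin, lay near the baseline, with NCL at 0.019 with EPO and -0.23 without EPO and NPM1 at -0.0094 with EPO and -0.038 without EPO. The probe of NPM1 may also collect signal from copies, since 50 pseudogenes carry its name.

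**Figure D3:**
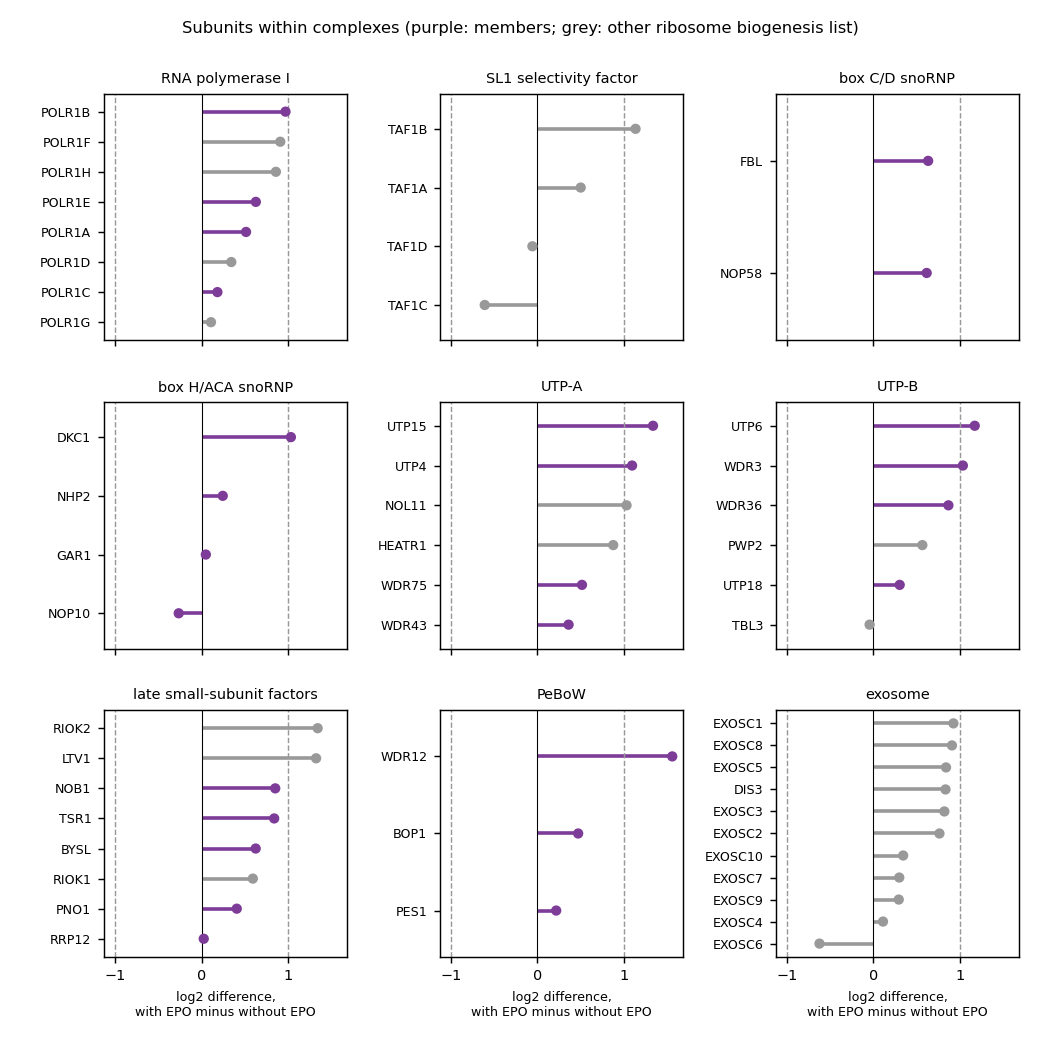
Log2 difference, with EPO minus without EPO (x axis), of listed and measured subunits of 9 complexes or steps, 1 line per gene, from 1 array per group. Purple genes belong to the 55 factors, grey genes to the further list, and dashed lines mark 2-fold. The POLR1 genes and the UTP-A genes all lie above 0. The H/ACA proteins run from -0.26 to 1.03 and PeBoW from 0.22 to 1.56.

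The 112 further ribosome biogenesis genes ran in the same direction. Their median difference was 0.49, and 96 of them (85.7%) were above 0, against 45.4% of all genes. At least 2-fold higher were 15 (13.4%), against 6.19% of all genes, and 0 were at least 2-fold lower, against 0.898%. Cellular machinery genes stood close to this, with a median of 0.46, 77.5% above 0 and 13% at least 2-fold higher. The 4 highest of the further list were PWP1, a WD-repeat protein, at 1.59 (3.01-fold), the small-subunit chaperone TSR2 at 1.44, AATF at 1.42 and RIOK2 at 1.34. The 4 lowest were the exosome subunit EXOSC6 at -0.62, TAF1C at -0.61, the nucleolar protein NOP9 at -0.55 and the snoRNP assembly factor ZNHIT3 at -0.52. The exosome, the nuclease that trims ribosomal RNA ends, had 10 of 11 measured subunits above 0, EXOSC6 being the exception, and 0 past 2-fold.

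Several member genes hold small nucleolar RNA genes within their span, and RNAs of this class are usually processed from introns of the host transcript. By position in the RefSeq gene table (GRCh38.p14), 27 small nucleolar RNA genes lie inside 9 of the 55 genes, and 7 of them had a probe of their own. Strand was not compared, since the table gives none. Of the 7, 6 were below 0, with a median of -0.78, and 1 was at least 2-fold lower. SNORD53, inside WDR43, had -0.15 with EPO and 1.36 without EPO, a difference of -1.50 (2.84-fold lower), while WDR43 itself differed by 0.36. Inside NCL, SNORA75 differed by -0.87 and SNORD82 by -0.78, while SNORD20 stood at 0.13 and NCL at 0.25. Inside NOP56, SNORA51 differed by -0.92 and SNORD57 by -0.78, and SNORD105, inside PPAN, by -0.043. Small nucleolar RNAs as a class were low as well: over all 175 measured, the median difference was -0.31, 132 were below 0 and 21.1% were at least 2-fold lower.

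The widest gap between a host gene's own probe and a probe naming an RNA within it was at DKC1. A probe named for DKC1 together with SNORA36A and the microRNA gene MIR664B had -1.32 with EPO and 1.30 without EPO, a difference of -2.61 (6.12-fold lower), against 1.03 for the probe of DKC1 alone. A second shared probe, named for DKC1 and SNORA56, differed by -0.31. If both shared probes were averaged into DKC1, its difference would be -0.63, and RRN3 with its shared probes would be 0.15, so the DKC1 call holds only for its own probe. MIR664B overlaps SNORA36A, and its mature RNAs are shown, from RefSeq (GRCh38.p14), because they lie under that probe's annotation. The 5′ arm lies at chrX:154768596-154768619 and the 3′ arm at chrX:154768635-154768656, both on the plus strand. Capitals mark the seed, bases 2 to 8.
hsa-miR-664b-5p: uGGGCUAAgggagaugauugggua
hsa-miR-664b-3p: uUCAUUUGccucccagccuaca
These letters do not say which of the 3 RNAs gave the signal.

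**Figure D4:**
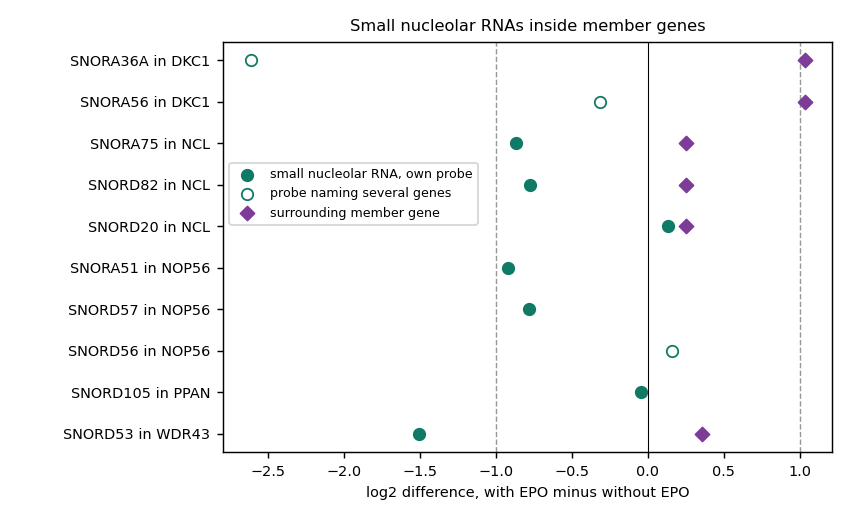
Log2 difference, with EPO minus without EPO (x axis), of small nucleolar RNAs inside member genes (green circles, open where the probe names several genes) and of the surrounding member gene where it has a probe of its own (purple diamonds), 1 array per group. In DKC1, NCL and WDR43 each circle lies left of its diamond. The margin is widest for the probe shared by SNORA36A, MIR664B and DKC1, at -2.61 against 1.03.

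Promoters of the factors were searched for the E-box CACGTG, the motif bound by MYC and its relatives, in RefSeq windows of 300 bases (250 before to 50 after each listed start, GRCh38.p14). The motif reads the same on both strands. Windows were found for 45 of the 55 genes. Of their 55 windows, 20 (36.4%) held it, against 8.34% of 22199 windows of protein-coding genes and 26.3% of 118 windows of the further list. The ETS-type motif CCGGAAG, on either strand, was in 38.2% against 12.8%, CCAAT on either strand in 38.2% against 34.7%, and TATAAA on either strand in 1.82% against 9.47%. In the further list CCGGAAG was in 37.3% of windows, CCAAT in 38.1% and TATAAA in 5.93%, so the share with CCGGAAG was close to that of the factors. Shares for cellular machinery genes, or for windows of like base composition, were not computed. Whether the E-box share is particular to this pathway was therefore not tested. The 17 measured genes with an E-box in any listed window had a median difference of 0.48 (-0.26 to 1.54, with 5 past 2-fold), and the 24 without one 0.59 (-0.41 to 1.56, with 5 past 2-fold). For CCGGAAG the median was 0.60 in 17 genes with it (3 past 2-fold) and 0.51 in 24 genes without it (7 past 2-fold). For CCAAT it was 0.38 in 18 genes with it (3 past 2-fold) and 0.84 in 23 genes without it (7 past 2-fold). For the E-box and CCGGAAG the medians and the shares past 2-fold pointed opposite ways, and none of these splits was tested.

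The promoters at both ends of the range are shown as examples, chosen by their difference, so they carry no comparison of genes with and without the motif. Printed are the 2 highest and the 2 lowest genes with an E-box, then the highest and the lowest gene without one, as the 170 bases before and the first 30 bases after the start, 5′ to 3′, with each E-box in capitals. DDX21 has a second listed start, and the window shown is the one with the motif, chr10:68956477-68956676 (plus strand). GNL2 lies at chr1:37595908-37596107 (minus strand), NOP10 at chr15:34343107-34343306 (minus strand), MRTO4 at chr1:19251635-19251834 (plus strand), WDR12 at chr2:202911644-202911843 (minus strand) and RRP1 at chr21:43789407-43789606 (plus strand).
DDX21: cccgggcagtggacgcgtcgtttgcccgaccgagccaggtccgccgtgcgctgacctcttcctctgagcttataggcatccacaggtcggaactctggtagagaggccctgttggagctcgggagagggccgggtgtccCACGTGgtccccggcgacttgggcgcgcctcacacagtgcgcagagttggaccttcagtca
GNL2: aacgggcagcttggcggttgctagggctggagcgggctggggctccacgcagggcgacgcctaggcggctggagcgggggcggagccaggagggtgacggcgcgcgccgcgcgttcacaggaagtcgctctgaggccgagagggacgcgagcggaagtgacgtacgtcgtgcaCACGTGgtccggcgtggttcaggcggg
NOP10: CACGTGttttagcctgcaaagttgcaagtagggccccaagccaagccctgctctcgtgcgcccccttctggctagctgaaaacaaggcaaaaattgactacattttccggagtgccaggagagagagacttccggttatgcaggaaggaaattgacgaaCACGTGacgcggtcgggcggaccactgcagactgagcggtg
MRTO4: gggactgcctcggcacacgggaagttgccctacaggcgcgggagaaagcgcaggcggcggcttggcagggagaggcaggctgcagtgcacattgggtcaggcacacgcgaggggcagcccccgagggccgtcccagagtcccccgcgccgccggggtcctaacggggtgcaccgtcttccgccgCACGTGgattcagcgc
WDR12: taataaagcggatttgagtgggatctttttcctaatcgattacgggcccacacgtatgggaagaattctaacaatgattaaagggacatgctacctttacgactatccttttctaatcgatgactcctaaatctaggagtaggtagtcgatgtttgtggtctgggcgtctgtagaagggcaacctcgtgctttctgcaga
RRP1: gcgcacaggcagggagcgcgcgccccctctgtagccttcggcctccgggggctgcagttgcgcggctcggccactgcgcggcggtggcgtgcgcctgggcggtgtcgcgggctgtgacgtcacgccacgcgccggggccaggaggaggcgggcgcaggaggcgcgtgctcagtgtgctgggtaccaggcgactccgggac
NOP10, with a difference of -0.26, holds 2 E-boxes, one beginning 11 bases before the start, while DDX21, with 1.54, holds 1 and WDR12, with 1.56, holds 0. The base composition of the windows also varied widely between the top and bottom genes without the motif, with 43.5% G and C in WDR12 and 77.0% in RRP1. A match is a description of these letters and not a measured binding site.

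The longer genes of the list held all of the calls. Of 39 factors with a gene over 10 kb in RefSeq, 12 (30.8%) were at least 2-fold higher, with a median difference of 0.63, while of the 11 factors with a gene of up to 10 kb none was, with a median of 0.24. NOP10, the shortest at 1.42 kb, was below 0, and so were NOP16 (4.65 kb) and MRTO4 (8.32 kb), but RRP8 (8.54 kb) stood at 0.94. Among the genes over 10 kb, RRP1 (15.7 kb) at -0.41 and UBTF (16.3 kb) at -0.016 were also below 0. The split at 10 kb had the same direction over all 16866 protein-coding genes: 8.23% of those over 10 kb and 1.80% of those up to 10 kb were at least 2-fold higher, with medians of 0.034 and -0.16. The rank correlation of difference with gene length was 0.27 over the 50 factors, 0.27 over the 112 further genes, 0.35 over machinery genes and 0.18 over all protein-coding genes. These correlations run across genes that share the same 2 arrays and are given as descriptions. The part of gene length in the differences was not tested.

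**Figure D5:**
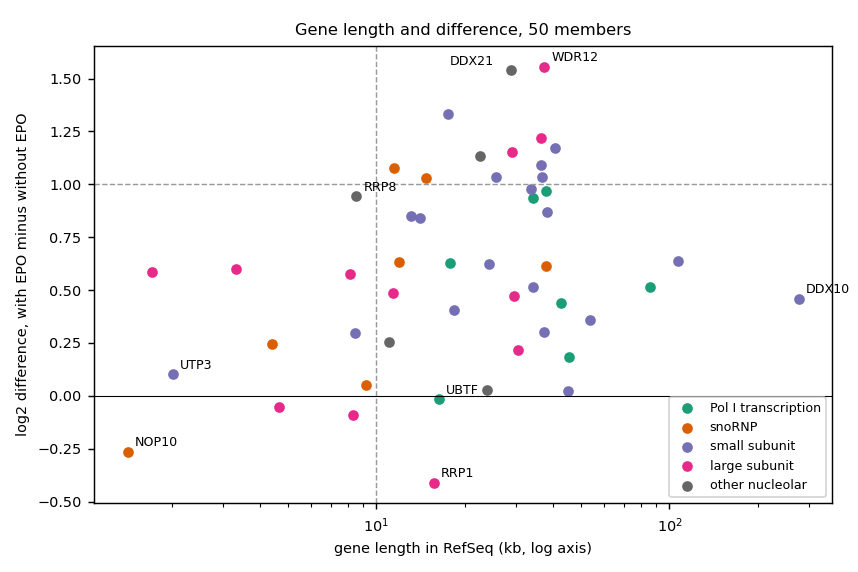
Log2 difference, with EPO minus without EPO (y axis), against gene length in RefSeq (x axis, kb, log scale) for the 50 factors, coloured by role, 1 array per group. The dashed lines mark 10 kb and 2-fold. All 12 genes past 2-fold lie to the right of 10 kb, and the lowest gene, RRP1, does so too.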

How the data were processed

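Transcripts of 2 samples of K562 cells were measured, each on 1 whole-transcript Affymetrix array, per the labels' protocols. The deposited log2 values are centred on a baseline by the authors, as the values themselves show. No source used here states the base of the logarithm, the background correction, the normalization or the software.

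Of 28869 probes, 19310 carried 1 gene symbol, 1752 several and 7807 none listed. Symbols came from the platform annotation and were updated by Entrez ID through RefSeq (GRCh38.p14), which matched 19279 of the 19310. Averaging the probes of each gene left 18377 genes. With 1 array per group no test was possible, and precision is limited by the number of arrays. All members may be named, and of the further genes the 4 highest and 4 lowest. Genes named by complex were added later. The members, roles and lists were chosen with earlier results of these data known. Alternatives were 3 scalings, 2 other rules for probes, probes with several genes added, means and a threshold of 1.5-fold. The averaging and the calls were run on simulated data with large planted changes, which checks the code only. The error of the calls on these 2 arrays is unknown. Calculations used Python 3.11.15, NumPy 2.4.6, pandas 2.3.3 and SciPy 1.17.1.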

Additional observations from a re-analysis of the deposited data

How the results depend on the processing

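With no replicates, a median was taken as unmoved when it shifted by less than 0.1 on the log2 scale, and a count when it stayed within 1.5 times. Of 47 alternative medians, 28 were unmoved and 0 changed sign. Of 38 alternative counts, 24 were unmoved. Many of the unmoved medians were fixed in advance. Subtracting the all-gene median of -0.047 moves every median by less than the 0.1 allowed, and gave 0.64 for the factors. Only 2 of the 50 factors had several probes of their own, and the factor median stayed at 0.593 under either other probe rule. The tally of unmoved medians is therefore no measure of robustness. With probes naming several genes added, the factor median was 0.514, and 11 factors in place of 12 were at least 2-fold higher. The cause of the shifts past these limits is the construction of the alternative, a constant subtracted from every gene, a lower threshold or a mean.

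With the machinery median subtracted, the median difference was 0.14 for the 50 factors, 0.056 for Pol I transcription, 0.16 for snoRNP proteins, 0.18 for small-subunit factors, 0.072 for large-subunit factors, 0.49 for the other nucleolar proteins, 0.034 for the further list and -1.24 for small nucleolar RNAs inside member genes. With the silent-family median subtracted, these were, in the same order, 0.93, 0.85, 0.95, 0.97, 0.86, 1.28, 0.82 and -0.45. As means instead of medians, snoRNP proteins stood at 0.48, the other nucleolar proteins at 0.78 and the small nucleolar RNAs at -0.68.

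The count at least 2-fold higher with the machinery median subtracted was 2 for the factors, 1 for the further list and 134 for all genes, and 3 and 1085 were at least 2-fold lower in the further list and in all genes. With the silent-family median subtracted, 19, 42 and 2812 were higher and 101 of all genes were lower. At 1.5-fold, 26, 46 and 3333 were higher, and 2 of the further list and 854 of all genes were lower. Background correction, normalization and a filter on dim probes need intensities and could not be varied. No paired analysis was possible because each group has 1 array. Signal over background is unknown for these values.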
